A study of Macaca mulatta with 95 samples.

Results

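The hypoblast, also called primitive endoderm, was followed from the middle to the late blastocyst in 8 single cells of rhesus macaque (Macaca mulatta) embryos. The 8 cells were taken from 31 inner cells whose titles begin with the letter G, among 95 cells in all. At the middle blastocyst (about day 5.5) an inner cell of letter G was taken at 50 RPKM or more of GATA4, where RPKM is reads per kilobase of gene and megaread. At the late blastocyst (about day 6) and the hatched blastocyst (about day 7) it was taken at 500 RPKM or more of APOA1 with less than 10 RPKM of NANOG. This gave middle cells 2, 3, 4 and 10, late blastocyst cells 11, 12 and 17, and hatched blastocyst cell 14, numbered as in their titles. Below, values of the middle cells are given in the order 2, 3, 4 and 10. Values of the late cells follow in the order 11, 12, 17 and hatched cell 14, and "late cells" covers all 4.

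The embryos were fertilised in vitro and cultured, with no genetic change and no treatment that differed between groups. Their outer cells were stained with the membrane dye PKH2, and the cells without dye were called inner. The zona pellucida was digested, the embryos were taken apart with trypsin, and each cell became 1 library of PCR-amplified cDNA. No label names the mother, the embryo or the meaning of the letter, so cells of a stage may come from 1 embryo, and embryo, collection day and stage cannot be told apart.

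The hypoblast is the layer of the inner cell mass that faces the blastocyst cavity, and it later lines the yolk sac. It is known for GATA and SOX17 transcription factors, for laying down the basement membrane between itself and the epiblast, and for secreting apolipoproteins and other plasma proteins before the liver exists. In the mouse, a part of its descendants, the anterior visceral endoderm, secretes inhibitors of Nodal and WNT signalling that pattern the epiblast.

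The cells were chosen by their GATA4, APOA1 and NANOG levels, which are given as a description. GATA4, a zinc finger factor of the endoderm, had 133, 141, 103 and 111 RPKM in the middle cells and 141, 55.7, 238 and 242 RPKM in the late cells. APOA1, the main protein of high density lipoprotein, had 2836, 1253, 4368 and 105 RPKM and then 4139, 3757, 2471 and 4146 RPKM. NANOG, an epiblast factor, stayed below 4 RPKM in all 8 cells. All 4 middle cells of letter G passed, the lowest at 103 RPKM of GATA4. At the late stages the lowest APOA1 taken was 2471 RPKM and the highest left out for its APOA1 was 223 RPKM. That cell, late blastocyst cell 27, had no GATA4, and its source name gives the hatched stage.

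The name hypoblast was checked on 12 markers other than the choosing genes. Their summed level was 262 to 579 RPKM per middle cell and 1401 to 4387 RPKM per late cell. In the early blastocyst cells of the letter the sum was 94.3 to 266 RPKM. In the late and hatched cells left out it was 53.2 to 1180 RPKM at NANOG of 10 RPKM or more and 92.7 to 366 RPKM below it. The middle cells overlapped each of these ranges, so the sum did not set them apart, while every late cell lay above them. APOB and CUBN lay below 1 RPKM in all 8 cells, and TTR in the middle cells. The summed level of 8 epiblast markers was 1123 to 1546 RPKM in middle cells, mostly POU5F1, and 108 to 764 RPKM in late cells. NODAL led in late cells 11 and 17 and the hatched cell, and PRDM14 and FGF4 lay below 1 RPKM in all 8 cells. SOX2 and GDF3 lay below 1 RPKM in every middle cell, but late cell 17 had 5.27 and 236 RPKM of them and late cell 11 had 50.2 RPKM of GDF3. Late cell 17 had 5 epiblast markers at 5 RPKM or more, against 3 or 4 in the middle cells. Of 11 trophectoderm markers the sum was 3.46 to 364 RPKM in middle and 224 to 2447 RPKM in late cells, led by KRT19. KRT7, CYP19A1, CGA, HSD3B1 and PTGES were below 1 RPKM in every late cell. GATA2, GATA3 and CDX2 were below 1 RPKM in every middle cell, but late cell 17 had 24.0 RPKM of GATA3, and the hatched cell had 5.83 RPKM of GATA2 and 40.0 RPKM of CDX2. The markers with a mean of 5 RPKM or more numbered 2 in the middle and 4 in the late group. These other-lineage levels moved with the stage, and their part in the differences below was not tested.

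Recovered depth was 6.72 to 8.05 megareads per middle and 8.93 to 13.1 megareads per late cell. The deeper late cells had fewer genes at 1 RPKM, 3566 to 4448 against 4296 to 5681. Because no label separates animals or embryos, each group counts as 1 sample, no test was made, and every difference below describes these cells. SDs are the spread over 4 cells. A log2 ratio is that of the late over the middle mean after adding 1 RPKM to both, which understates the change of low genes and sets the ratio of a gene near 0. Measured genes had a mean of 5 RPKM or more in at least 1 group, and a difference of 2-fold or more was called.

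Of 6870 measured genes, 1965 (28.6%) were higher and 2445 (35.6%) lower in the late cells, with a median log2 ratio of -0.22. Scaling each cell by a median-of-ratios size factor turned the split to 2400 higher and 1626 lower and moved the median to 0.41. The cells of the groups did not overlap for 163 of the higher genes (2.37%) and 529 of the lower (7.7%). Of 4084 genes with a mean of 5 RPKM or more on both sides, 839 (20.5%) were higher and 968 (23.7%) lower. Counts for the gene lists below are to be read beside these shares. Across the measured genes, Pearson's r of log2(RPKM + 1) was 0.55 to 0.66 between middle cells (6 pairs), 0.41 to 0.50 between late cells (6 pairs) and 0.36 to 0.46 between a middle and a late cell (16 pairs). The late cells were less alike among themselves than the middle cells, with a median SD of 2.24 against 1.66 on the log2 scale. Genes are not independent points, and depth and detection differ between the groups.

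**Figure D1:**
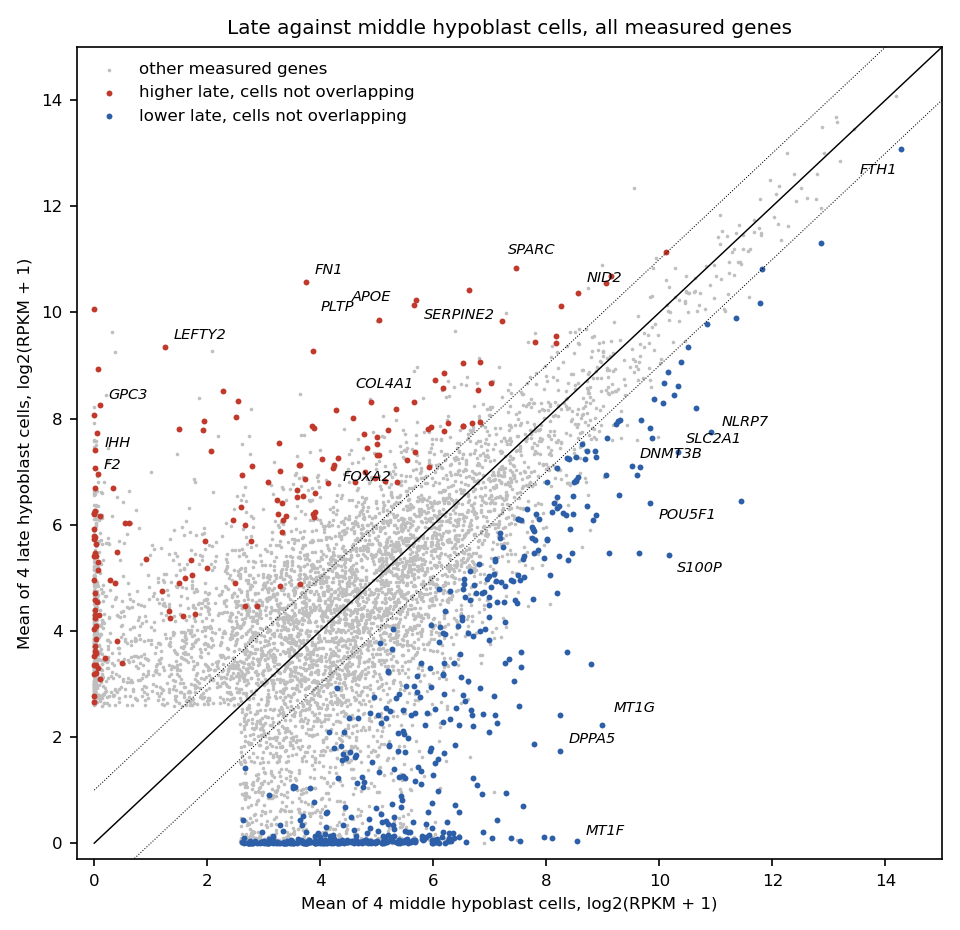
Mean level of each of 6870 measured genes in the 4 middle (horizontal) and 4 late (vertical) hypoblast cells of letter G, both as log2(RPKM + 1). The solid line marks equal means and the dotted lines 2-fold; red and blue points are the 163 higher and 529 lower genes whose cells do not overlap, with FN1, SPARC and LEFTY2 far above the line and POU5F1, S100P and DPPA5 far below it.

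Among the transcription factors, HNF4A was present in all 8 cells and SOX17 in all but middle cell 10, while FOXA1, FOXA3 and EOMES were at or near 0 in the middle cells. SOX17, an endoderm factor of the SOX family, had 94.2, 133, 50.4 and 0 RPKM in the middle cells and 259, 90.2, 218 and 201 RPKM in the late cells. The groups overlapped through late cell 12, and the mean went from 69.4 ± 57.3 to 192 ± 72.1 RPKM (SD), a log2 ratio of 1.45. FOXA2, a forkhead factor that opens chromatin in endoderm, had 24.0, 0.382, 3.95 and 43.5 RPKM and then 115, 177, 164 and 103 RPKM. Every late cell lay above every middle cell, with a log2 ratio of 2.89 (2.50 to 3.75 without any 1 cell).

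FOXA1, the close relative of FOXA2, was listed at 0 in all 4 middle cells and had 153, 109, 21.3 and 6.04 RPKM in the late cells. FOXA3 reached 95.6, 37.3 and 62.5 RPKM in late cells 12, 17 and hatched cell 14 and was 0 in late cell 11. EOMES, a T-box factor of the endoderm and mesoderm, was 0 in the middle cells, 498, 75.3 and 190.2 RPKM in the late blastocyst cells and 0 in the hatched cell. FOXA1 was thus the only one of these 3 found in every late cell, and at its lowest in the hatched cell.

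HNF4A, a nuclear receptor that drives liver and yolk sac genes, had 48.0, 52.4, 16.3 and 21.0 RPKM in the middle cells and 27.7, 14.2, 98.2 and 85 RPKM in the late cells. Its log2 ratio of 0.69 did not reach 2-fold and the cells overlapped. The highest value was in late cell 17 and the lowest in late cell 12.

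Of 24 transcription factors of the list in the table, GATA4 aside, 15 were measured, 13 higher and 0 lower, against the 28.6% and 35.6% of all measured genes. Of the 15, 7 were measured only through their late level and so could not be called lower. Of the 8 at 5 RPKM or more on both sides, 6 were higher, and over all genes measured on both sides 20.5% were. FOXA1 and FOXA2 were the 2 whose cells did not overlap. Without the hatched cell the number higher was 9.

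**Figure D2:**
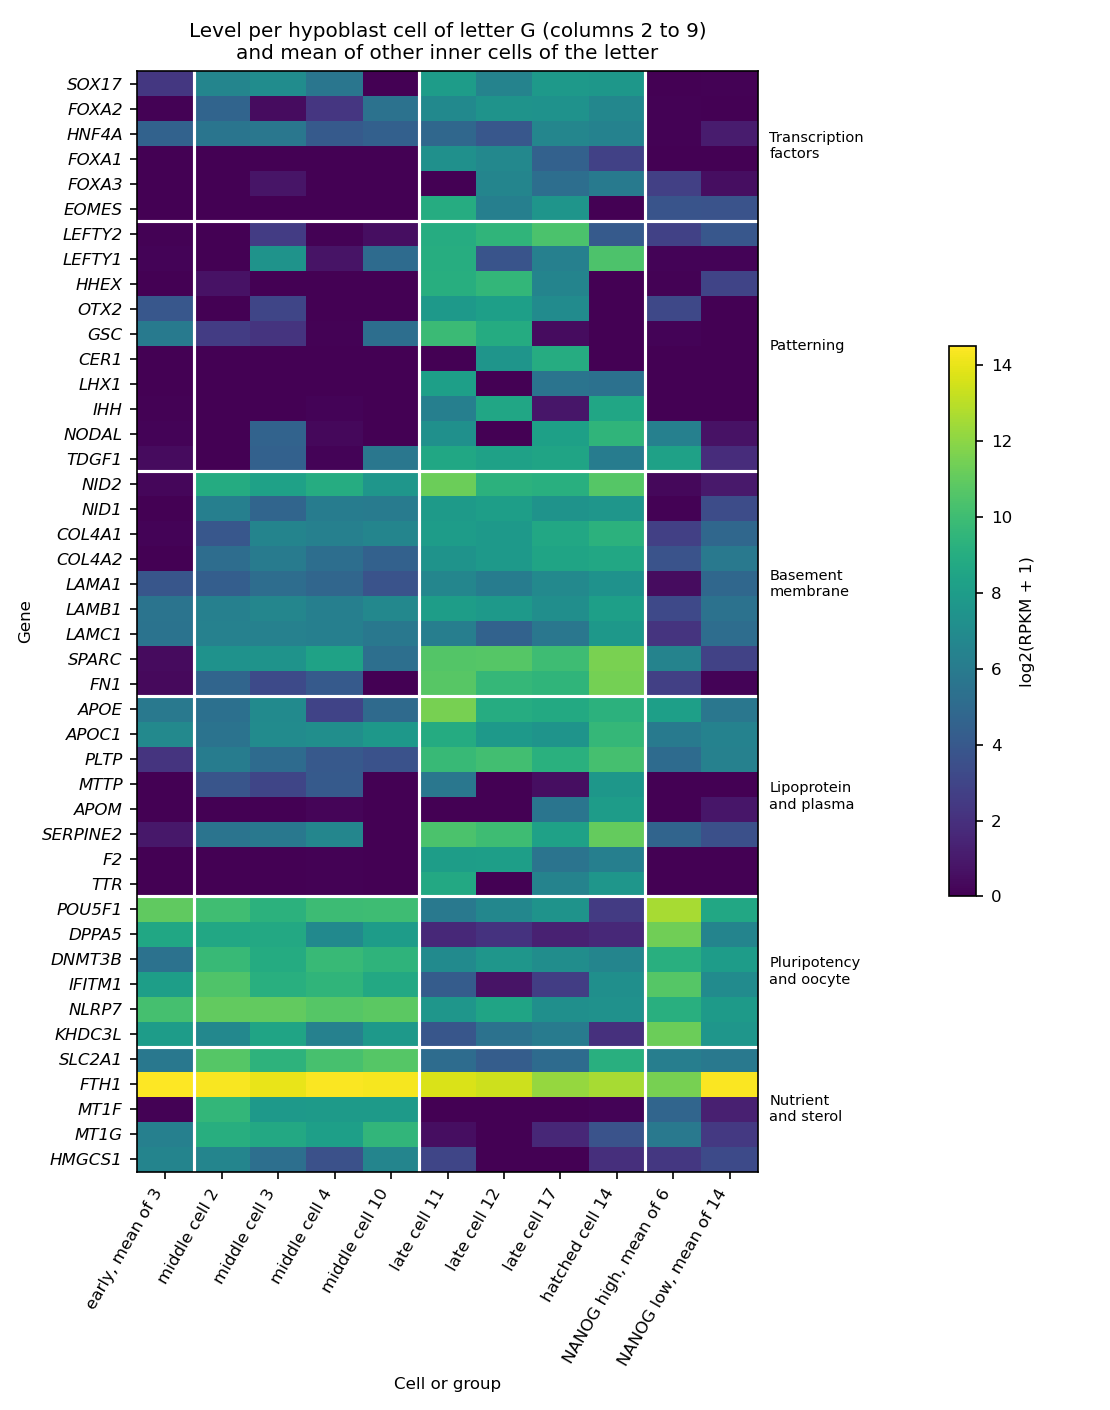
Level per cell as log2(RPKM + 1) (colour) of 44 genes in 6 groups (rows) in the 8 hypoblast cells of letter G, beside the mean of other inner cells of the letter (columns: 3 early blastocyst cells, 6 late blastocyst cells with NANOG of 10 RPKM or more, 14 late and hatched cells below it). The 9 basement membrane genes shown are present in the middle cells, apart from FN1 in middle cell 10, and all but LAMC1 are higher in the 4 late cells, while HHEX, OTX2, GSC and CER1 appear in late blastocyst cells and not in hatched cell 14.

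Of 13 measured matrix genes, 9 were already at a mean of 5 RPKM or more in the middle cells, and 8 of those 9 were higher in the late cells. The other 4 entered only through the late cells, and 3 to 5 of the 13 lay below 1 RPKM in each middle cell. SPARC, a collagen-binding matrix protein, had 166, 173, 324 and 38.6 RPKM in the middle cells and 1586, 1616, 1032 and 3055 RPKM in the late cells. FN1, fibronectin, had 25.1, 8.47, 16.1 and 0 RPKM and then 1714, 809, 711 and 2850.3 RPKM. The log2 ratio of SPARC was 3.37 and that of FN1 6.83, with every late cell above every middle cell and the hatched cell highest for both.

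The 2 nidogens, which link the laminin and collagen IV networks, differed in level. NID2 had 489.8, 313, 512 and 197 RPKM in the middle cells and 2410.3, 636, 577 and 1659 RPKM in the late cells. NID1 had 77.0, 25.7, 66.2 and 65.5 RPKM and then 242, 278, 175 and 199 RPKM. On the RPKM scale, which is per gene length, NID2 thus stood above NID1 in each of the 8 cells, and their log2 ratios were 1.80 and 1.91.

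COL4A1 and COL4A2 encode the chains of the main collagen IV trimer. COL4A1 had 14.1, 92.4, 79.0 and 97.2 RPKM in the middle cells and 254, 225, 413 and 633 RPKM in the late cells. COL4A2 had 35.2, 64.9, 36.4 and 22.0 RPKM and then 170.2, 227, 353 and 408 RPKM. Neither overlapped, and their log2 ratios were 2.42 and 2.84.

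The chains of laminin-111, the first laminin of the embryo, did not move together. LAMA1 had 19.5, 35.7, 26.7 and 12.3 RPKM in the middle cells and 99.1, 67.8, 111 and 168 RPKM in the late cells. LAMB1 had 77.8, 101, 75.9 and 108 RPKM and then 269.6, 218, 141 and 294 RPKM. LAMC1, in contrast, had 83.2, 83.5, 75.6 and 55.4 RPKM and then 73.0, 22.2, 52.5 and 212 RPKM, with a log2 ratio of 0.27 that was -0.59 without the hatched cell. The late cells were above the middle cells without overlap for LAMA1 (log2 ratio 2.20) and LAMB1 (1.34), while 3 of the 4 late cells lay below the middle mean of LAMC1.

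Of 27 matrix genes looked up, 12 of the 13 measured were higher, 8 of them without overlap, and 0 lower. Over all measured genes 28.6% were higher, 2.37% higher without overlap, and 35.6% lower. The enzymes that fold and crosslink collagen did not follow as a list. Of 12 measured, 3 were higher and 3 lower, with a median log2 ratio of 0.13. SERPINH1, the collagen chaperone, had 552, 347, 520.0 and 939 RPKM in the middle cells and 369, 612, 508 and 462 RPKM in the late cells, a log2 ratio of -0.27 that turned to 0.16 with median-of-ratios scaling. P4HB, a subunit of prolyl hydroxylase, had a log2 ratio of 1.11, which fell below 2-fold without middle cell 10 or late cell 12. In the mean of the 3 early blastocyst cells of letter G, FN1, SPARC, NID1, NID2, COL4A1 and COL4A2 all lay below 1 RPKM, while LAMB1 was at 47.4, LAMC1 at 44.8 and LAMA1 at 13.7 RPKM.

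Genes of Nodal, WNT and anterior endoderm patterning were largely absent from the middle cells and present in the late cells, but in different late cells for different genes. LEFTY2, an inhibitor of Nodal, had 0, 5.02, 0.0542 and 0.456 RPKM in the middle cells and 503, 714, 1358 and 16.3 RPKM in the late cells. LEFTY1, its close copy, had 0, 173, 0.685 and 32.0 RPKM and then 529.9, 12.4, 77.8 and 1387 RPKM. The cells overlapped for LEFTY1 and not for LEFTY2, and the hatched cell was highest for LEFTY1 and lowest among late cells for LEFTY2. The 2 genes are near-identical copies, and the sources used here do not say how reads shared between copies were counted.

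NODAL, the ligand itself, had 0, 23.3, 0.217 and 0 RPKM in the middle cells and 154, 0.0229, 301 and 705 RPKM in the late cells. TDGF1, its co-receptor, had 0.0354, 21.8, 0.118 and 52.0 RPKM and then 405, 315, 351 and 65.8 RPKM. FOXH1, the DNA-binding partner of the SMADs that NODAL activates, had 371, 243, 77.2 and 63.8 RPKM and then 393, 416, 279 and 327 RPKM. The late cells lay above all middle cells for TDGF1 (log2 ratio 3.87), NODAL missed late cell 12, and FOXH1 was present throughout at a log2 ratio of 0.90. NODAL and TDGF1 are also expressed in the epiblast, and the 6 NANOG-high late cells averaged 78.3 and 315 RPKM of them.

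HHEX, a homeobox factor of the anterior visceral endoderm in the mouse, had 0.64, 0, 0 and 0 RPKM in the middle cells and 535, 767, 91.9 and 0 RPKM in the late cells. OTX2, a homeobox factor of anterior tissues, had 0, 7.03, 0 and 0.0297 RPKM and then 222, 289, 129 and 0.0218 RPKM. Both were high in the 3 late blastocyst cells and below 1 RPKM in the hatched cell, so that the groups overlapped through that cell alone. GSC, goosecoid, had 5.05, 3.54, 0.0487 and 37.2 RPKM and then 929, 482, 0.419 and 0 RPKM, and so was high in late cells 11 and 12 only.

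DKK1, an inhibitor of WNT signalling, was listed at 0 in the middle cells and had 3939, 356, 0.223 and 0.0266 RPKM in the late cells. CER1, an inhibitor of Nodal and BMP, was 0 in the middle cells and in late cells 11 and hatched cell 14, and 188 and 512 RPKM in late cells 12 and 17. LHX1, a LIM homeobox factor, was 0 in the middle cells and had 294, 0, 46.3 and 41.9 RPKM in the late cells. No late cell carried DKK1, CER1, LHX1 and GSC together at 5 RPKM or more.

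IHH, a hedgehog ligand of the visceral endoderm, was at most 0.113 RPKM in the middle cells and had 75.0, 387, 0.825 and 382 RPKM in the late cells. Of 19 patterning genes looked up, 17 were measured, 16 higher and 0 lower, against 28.6% and 35.6% of all measured genes. Of the 17, 11 entered only through the late cells. Of the 6 measured on both sides 5 were higher, against 20.5% over all genes measured on both sides. Without overlap were 4, against 2.37% of all measured genes, and requiring 1 RPKM in every late cell left 2. All of the 17 but FOXH1 were below 1 RPKM in at least 1 of the 8 cells. Per cell, 9 to 15 of them lay below 1 RPKM in the middle cells and 4 to 7 in the late cells.

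Most of the measured lipoprotein and plasma protein genes were higher in the late cells. Of the 10 plasma protein genes, 7 were measured only through those cells and so could not be called lower. Some genes of both lists were already present at the middle stage and others appeared. PLTP, which moves phospholipids between lipoproteins, had 68.3, 32.1, 15.9 and 11.5 RPKM in the middle cells and 863, 1088, 590.3 and 1172 RPKM in the late cells. APOE had 39.1, 121, 6.53 and 31.0 RPKM and then 2899.5, 510.0, 448 and 625 RPKM. SERPINE2, a secreted inhibitor of serine proteases, had 47.2, 56.0, 99.1 and 0.0303 RPKM and then 1324, 1019, 312 and 2125 RPKM. All 3 were higher in every late cell than in any middle cell, with log2 ratios of 4.82 for PLTP, 4.48 for APOE and 4.54 for SERPINE2.

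F2, prothrombin, was at most 0.0585 RPKM in the middle cells and had 270.3, 279.9, 46.1 and 74.7 RPKM in the late cells. TTR, transthyretin, which carries thyroid hormone and retinol, was at most 0.0646 RPKM in the middle cells and had 434, 0, 88.8 and 196 RPKM in the late cells. F2 was thus found in every late cell and TTR in 3 of them. Both stayed below 1 RPKM in the means of the early, NANOG-high and remaining inner cells of the letter.

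APOC1, an exchangeable apolipoprotein, had 45.8, 128, 143 and 211 RPKM in the middle cells and 476, 224, 181 and 798 RPKM in the late cells. Its log2 ratio was 1.66 and late cell 17 fell within the middle range. MTTP, the transfer protein that loads lipid onto APOB, had 13.0, 7.16, 16.2 and 0 RPKM and then 51.8, 0, 0.456 and 203 RPKM. The log2 ratio of MTTP was 2.68 and fell to 0.87, below 2-fold, without the hatched cell.

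Of 25 lipoprotein genes in the table, APOA1 aside, 11 were measured, 8 higher and 2 lower, and 2 of the 11 entered only through the late cells. Of the 8 measured on both sides, 7 were higher and 1 lower. Of 34 plasma and yolk sac protein genes 10 were measured and 9 were higher, 7 of the 10 only through the late cells, and 0 lower. Of the 3 measured on both sides, 2 were higher. Over all genes measured on both sides, 20.5% were higher and 23.7% lower, and over all measured genes 28.6% and 35.6%. Without the hatched cell 6 plasma protein genes were higher. ALB, SERPINA1, AHSG, the fibrinogen genes FGA, FGB and FGG, TF and RBP4 did not reach a mean of 5 RPKM in either group, and AFP, alpha-fetoprotein, was 31.6 RPKM in the hatched cell and 0 in the other 7. The endoplasmic reticulum genes that handle secreted proteins did not differ as a list. All 36 secretory pathway and unfolded protein response genes were measured, 7 higher and 5 lower, with a median log2 ratio of 0.06.

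**Figure D3:**
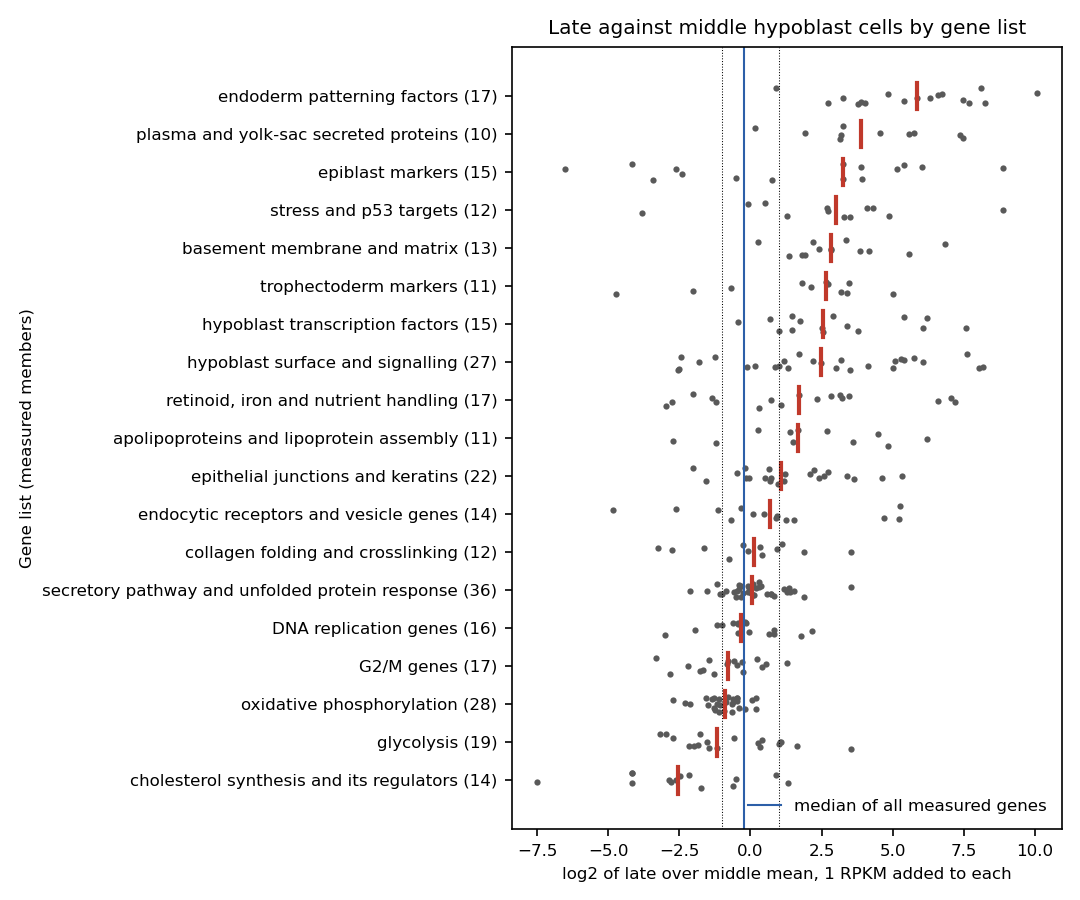
Log2 ratio of the late over the middle mean (horizontal, 1 RPKM added to each) for the measured members of each gene list of 10 or more (rows), one point per gene. Red bars are list medians, the blue line the median of all 6870 measured genes at -0.22, and dotted lines mark 2-fold. Patterning genes have the highest median (5.87) and cholesterol genes the lowest (-2.56). Of these, 11 of 17 patterning genes entered only through the late cells and 8 of 14 cholesterol genes only through the middle cells. Over members measured on both sides the medians are 3.57 and -0.58. By that measure the epiblast list is the lowest shown, at -1.46.

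Surface receptors and ligands differed by gene and by cell. GPC3, a membrane proteoglycan of the yolk sac and fetal liver, had 0, 0, 0.277 and 0 RPKM in the middle cells and 146, 102, 70.2 and 899 RPKM in the late cells. LRP1, an endocytic receptor that binds APOE, had 0.327, 0.189, 0.318 and 0.00882 RPKM and then 38.8, 19.4, 30.1 and 32.7 RPKM. WNT11, a WNT ligand, was at most 0.0302 RPKM and then 31.0, 56.5, 90.7 and 35.7 RPKM. None of the 3 overlapped, the late cells were closest to each other for LRP1, and the log2 ratio of GPC3 was 8.16 with the hatched cell and 6.65 without it.

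CXCR4, a chemokine receptor, was listed at 0 in the middle cells and had 488, 417, 148 and 0 RPKM in the late cells. FGF17, an FGF ligand, likewise was 0 in the middle cells and then 64.8, 266, 439 and 0 RPKM. KIT, the receptor of stem cell factor, was at most 2.06 RPKM and then 57.6, 76.5, 122 and 0.0559 RPKM. The 3 genes shared the pattern of HHEX and OTX2, high in each late blastocyst cell and absent or nearly so from the hatched cell.

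Some receptors were lower in the late cells. IL6R, a receptor of interleukin 6, had 8.45, 60.6, 55.4 and 82.7 RPKM in the middle cells and 0, 0.00956, 0 and 35.2 RPKM in the late cells. Its log2 ratio was -2.43 with the hatched cell and -5.72 without it. IL6ST, its signalling partner (-1.80), BMPR1A, a BMP receptor (-2.50), and FGFR2, an FGF receptor (-1.23), were also lower, each with overlapping cells. Of 40 surface and signalling genes looked up, 27 were measured, 19 higher and 5 lower, and 13 of the 27 entered only through the late cells. Of the 13 measured on both sides, 6 were higher and 4 lower. PDGFRA, the receptor often used to mark hypoblast in the mouse, was below the minimum in both groups.

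The hatched cell, the only one of day 7, differed from the 3 late blastocyst cells in both directions. BMP2, a BMP ligand of the visceral endoderm, had 8.60, 0, 1.00 and 0 RPKM in the middle cells, 0.0187, 0 and 19.9 RPKM in the late blastocyst cells and 439 RPKM in the hatched cell. FRZB, an inhibitor of WNT, was at most 0.199 RPKM, then 0, 4.12 and 21.8 RPKM, and 414 RPKM in the hatched cell. FST, follistatin, an inhibitor of activin, was at most 0.128 RPKM in the other 7 cells and 322 RPKM in the hatched cell.

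VTN, vitronectin, had 179 RPKM in the hatched cell against 10.5 RPKM at most in the others. APOC3 had 426 RPKM in the hatched cell, 0 in the late blastocyst cells and up to 22.2 RPKM in the middle cells. FOS, an immediate early factor, had 2230.3 RPKM there and at most 126 RPKM elsewhere, and ATF3, a stress factor, 118 RPKM against at most 0.159 RPKM. CDX2 (40.0 RPKM), HAND1 (34.9 RPKM) and PGF (132 RPKM), known from trophectoderm or extraembryonic mesoderm, were below 1 RPKM in the other 7 cells. For these genes a difference between late and middle rests on 1 cell, and stage cannot be told apart from that cell.

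Over 6868 measured genes, the 2 measured choosing genes left out, the hatched cell stood above all 3 late blastocyst cells for 29.9% and below all 3 for 15.2%. It stood above them for 9 of 13 matrix genes, with 1 below. For the lipoprotein genes it was 7 above and 1 below of 11, and for the plasma protein genes 5 above and 1 below of 10. For the surface genes it was 11 above and 6 below of 27, and for the transcription factors 4 above and 4 below of 15. For the patterning genes it was 4 above and 6 below of 17, and for 5 of the 17 it was below 1 RPKM where at least 2 late blastocyst cells had 20 RPKM or more. These counts have no error, since 1 cell is compared with 3.

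Among retinoid genes, ALDH1A1, CYP26A1 and CRABP2 had higher means in the late cells. ALDH1A1, which makes retinoic acid, had 0, 29.4, 0.0845 and 31.6 RPKM in the middle cells and 159, 164, 102 and 175 RPKM in the late cells. CYP26A1, which degrades it, had 12.9, 0, 0.0279 and 0 RPKM and then 283, 1311, 890.4 and 0 RPKM. CRABP2, which carries it, was 0 in the middle cells and then 448, 22.2, 59.4 and 0 RPKM. All 3 were thus found together in each late blastocyst cell, and the hatched cell had ALDH1A1 alone. Of 17 measured genes of retinoid, iron and nutrient handling 10 were higher and 5 lower, and without the hatched cell 5 were higher. Of the 17, 7 entered only through the late cells, and of the 10 measured on both sides 3 were higher and 5 lower.

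Among junction and keratin genes, DSP and DSC2 were higher in the late cells, KRT8 and KRT18 lower and KRT19 higher. DSP, desmoplakin, had 2.96, 9.65, 0.0747 and 0.0587 RPKM in the middle cells and 308, 148, 162 and 44.5 RPKM in the late cells. DSC2, desmocollin 2, had 0.0135, 0.802, 17.0 and 0.138 RPKM and then 85.7, 27.1, 70.5 and 85.1 RPKM. KRT18 had 461, 1582, 742 and 340.0 RPKM and then 125, 86.8, 348 and 213 RPKM. The cells did not overlap for DSP (log2 ratio 5.31) and DSC2 (3.63) and did for KRT18 (-2.01) and its partner KRT8 (-1.56). KRT19, a trophectoderm marker, went the other way, from 134, 1.05, 364 and 119 RPKM to 1324, 249, 2378 and 135 RPKM. Of 22 measured junction and keratin genes 11 were higher and 2 lower, 6 of the 22 entering only through the late cells, and of the 16 measured on both sides 5 were higher and 2 lower. Over all genes measured on both sides, 20.5% were higher and 23.7% lower. Of 11 measured trophectoderm genes 8 were higher and 2 lower, 6 of the 11 entering only through the late cells, and of the 5 measured on both sides 2 were higher and 2 lower. Of 14 measured endocytic genes 5 were higher and 3 lower, and of the 9 measured on both sides 2 were higher and 1 lower.

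The genes that were lower in the late cells included pluripotency genes that the middle cells still carried. POU5F1, known as OCT4, had 1056, 631, 976 and 1002 RPKM in the middle cells and 56.9, 105, 171 and 4.71 RPKM in the late cells. DPPA5 had 406, 432, 116 and 256 RPKM and then 2.21, 3.36, 1.54 and 2.14 RPKM. DNMT3B, a DNA methyltransferase, had 873, 485, 862 and 690.0 RPKM and then 121, 192, 137 and 96.2 RPKM. None of the 3 overlapped, and their log2 ratios were -3.43 for POU5F1, -6.52 for DPPA5 and -2.40 for DNMT3B.

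In the 6 NANOG-high late cells of the letter the means were 6119.8 RPKM of POU5F1, 2599.6 RPKM of DPPA5 and 575 RPKM of DNMT3B. The 3 early blastocyst cells averaged 1998, 404 and 42.4 RPKM. The mean of the middle hypoblast cells thus lay below both means in POU5F1 and above both in DNMT3B, though middle cell 3, at 485 RPKM of DNMT3B, lay below the NANOG-high mean. No test of these differences was made.

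IFITM1, an interferon-induced membrane protein, had 1474, 567, 705 and 426 RPKM in the middle cells and 17.9, 0.673, 5.32 and 149.7 RPKM in the late cells. NLRP7, a gene of the oocyte and early embryo, had 2058, 2102, 1667 and 1872 RPKM and then 199, 347, 148 and 163 RPKM. KHDC3L, of the maternal complex under the oocyte membrane, had 106, 352, 82.9 and 231 RPKM and then 13.8, 44.0, 65.4 and 2.95 RPKM. The 4 late cells lay below the 4 middle cells in each, with log2 ratios of -4.16, -3.16 and -2.58, and NLRP7 varied least among the middle cells.

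Other members of the epiblast list were higher. ZIC2, a zinc finger factor, was at most 0.0885 RPKM in the middle cells and had 1157, 361, 418 and 10.5 RPKM in the late cells, and the NANOG-high cells averaged 174 RPKM. Of 24 epiblast genes in the table, NANOG aside, 15 were measured, 8 higher and 5 lower. Of the 8 measured on both sides, 3 were higher and 4 lower.

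Some genes of glucose uptake, metal binding and sterol synthesis were lower in the late cells. SLC2A1, the glucose transporter GLUT1, had 1616, 672, 1235 and 1616 RPKM in the middle cells and 34.4, 18.5, 32.1 and 575 RPKM in the late cells. SLC2A3, the transporter GLUT3, had 487, 280.3, 280.0 and 110.3 RPKM and then 340.5, 493, 461 and 1136 RPKM. SLC2A1 did not overlap and had a log2 ratio of -2.95, or -5.45 without the hatched cell, while SLC2A3 overlapped at 1.07, below 2-fold without middle cell 10 or the hatched cell. The mean of SLC2A1 was 1285 RPKM in the middle cells, 54.4 RPKM in early, 72.3 RPKM in NANOG-high and 57.9 RPKM in the remaining inner cells of the letter.

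MT1F and MT1G are metallothioneins, which bind zinc and copper. MT1F had 788, 218, 238 and 239.8 RPKM in the middle cells and 0, 0, 0 and 0.109 RPKM in the late cells. MT1G had 539, 435, 289 and 748 RPKM and then 0.448, 0, 2.05 and 12.2 RPKM. Neither overlapped, and reads of such near-identical copies may be shared between the genes. FTH1, ferritin heavy chain, had 21372, 16681, 21792 and 19816 RPKM and then 13258, 10646, 4707 and 6122 RPKM, a log2 ratio of -1.20 that was -0.65 with median-of-ratios scaling and -0.99 without late cell 17.

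HMGCS1, the synthase at the start of cholesterol synthesis, had 96.3, 38.7, 11.0 and 97.6 RPKM in the middle cells and 7.07, 0, 0.0399 and 2.83 RPKM in the late cells. SREBF1, a regulator of sterol and fatty acid genes, had 19.9, 9.62, 7.31 and 4.93 RPKM and then 0.0118, 0.0223, 4.13 and 0.0193 RPKM. The cells of the groups overlapped for neither, with log2 ratios of -4.15 and -2.48. HMGCS1 averaged 92.5 RPKM in the early and 4.08 RPKM in the NANOG-high cells.

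Of 21 cholesterol genes looked up, 14 were measured, 10 lower and 1 higher. Of the 14, 8 were measured only through the middle cells and so could not be called higher. Of the 6 measured on both sides 2 were lower and 1 higher. The 1 gene higher was SCD, a fatty acid desaturase, at a log2 ratio of 1.32 that fell to 0.95 without late cell 12. SQLE (-0.63), FDPS (-0.53) and IDI1 (0.90) stayed within 2-fold. The counts hold for the listed genes only. Outside the list, the sterol-related genes SC5DL, SCAP and ACAT2 had higher means in the late cells. They went from 4.70 to 261.5, from 22.3 to 59.2 and from 5.08 to 87.3 RPKM.

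Several glycolysis genes were lower and others higher. PGK1 had 1057, 1026, 953 and 599.5 RPKM in the middle cells and 15.1, 154, 212 and 526 RPKM in the late cells. ENO1 had 1389.6, 585, 1114 and 1189 RPKM and then 73.9, 293, 438 and 446 RPKM. TPI1, of the same pathway, had 238, 100.3, 100.1 and 79.9 RPKM and then 252, 515, 509 and 339 RPKM. The late cells lay below the middle cells without overlap for PGK1 (mean 909 against 227 RPKM) and ENO1 (log2 ratio -1.77) and above them for TPI1 (1.63). Of 19 glycolysis genes measured 10 were lower and 5 higher, against 35.6% and 28.6% of all measured genes. With median-of-ratios scaling 5 were lower and 5 higher.

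Of 28 genes of oxidative phosphorylation, all measured on both sides, 13 were lower and 0 higher, with a median log2 ratio of -0.90. Over all genes measured on both sides, 23.7% were lower and 20.5% higher. With median-of-ratios scaling 5 of the 28 were lower. NDUFA1, of complex I, had 498, 552, 223 and 534 RPKM in the middle cells and 0.12, 146, 12.8 and 110.0 RPKM in the late cells. COX8A, of complex IV, had 1001, 1152, 1472 and 936 RPKM and then 695, 509, 239 and 437 RPKM. Both were without overlap, at -2.73 and -1.28, and COX8A was within 2-fold (-0.71) with median-of-ratios scaling.

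S100P, a calcium-binding protein, had 1080.1, 1342, 934 and 1238 RPKM in the middle cells and 0.348, 165, 0.597 and 2.95 RPKM in the late cells. Its log2 ratio of -4.74 was -8.97 without late cell 12, and it turned to 0.16 when APOA1 of 200 RPKM was accepted, which adds late blastocyst cell 27. The mean of S100P was 3569.6 RPKM in the 14 other NANOG-low cells of the letter, a group with 8 of 11 trophectoderm markers at a mean of 5 RPKM or more.

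The loss of genes was also counted without a ratio. Of 2111 genes at 5 RPKM or more in every middle cell, 20.0% to 29.6% lay below 1 RPKM in a late cell. The share was 9.76% to 16.4% in the early blastocyst cells, 12.7% to 23.3% in the NANOG-high cells and 5.16% to 38.8% in the other late and hatched cells of the letter, so the late hypoblast cells lay inside the last range. Below 1 RPKM in all 4 late cells were 71 of the 2111, while 21 of 1171 genes at 5 RPKM or more in every late cell were below 1 RPKM in all 4 middle cells.

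**Figure D4:**
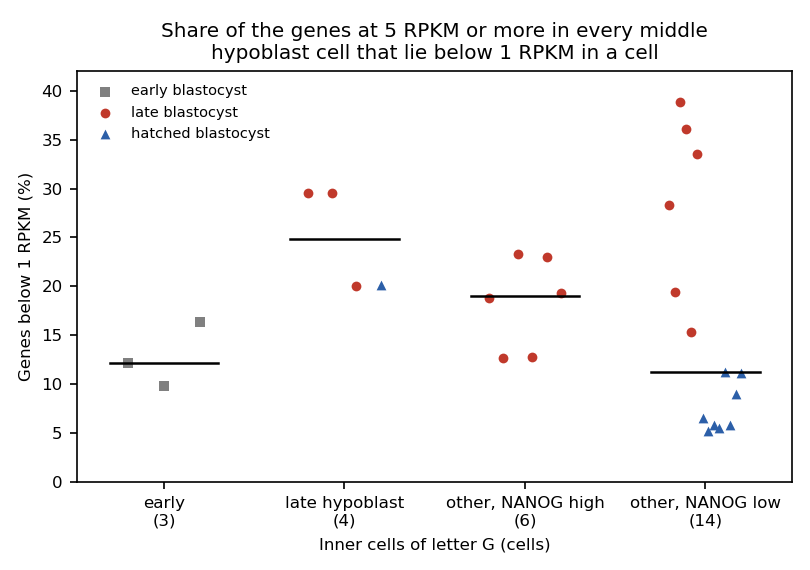
Share of the 2111 genes at 5 RPKM or more in every middle hypoblast cell that lie below 1 RPKM (vertical, %), one point per inner cell of letter G, by group (horizontal) with the stage as colour and shape. Black lines are medians; the late hypoblast cells lie between 20.0% and 29.6%, above the early blastocyst cells and within the range of the other NANOG-low cells.

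The genes with the largest ratios without overlap, chosen for size alone and so not tested, were of mixed kinds. Besides those above, the 15 highest included APOBEC2, GPR37, NDRG2, PDZRN3, GRAMD1A, ID3 and COL9A2. APOBEC2, a relative of cytidine deaminases, was 0 in the middle cells and then 555, 81.4, 386 and 45.0 RPKM. ID3, an inhibitor of DNA-binding factors that BMP induces, had 0, 6.81, 0.246 and 0.276 RPKM and then 366, 405, 98.6 and 14.4 RPKM, but averaged 279 RPKM in the early blastocyst cells.

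The 15 lowest included, besides MT1F, MT1G and DPPA5, the genes MRPS17, MRPS22 and TOP1MT of mitochondrial translation and transcription or DNA, and EXOSC5, WDYHV1, DBI, MPLKIP, JKAMP, NUDT5, PSMG4 and ANAPC7. EXOSC5, of the RNA exosome, had 123, 282, 315 and 272 RPKM in the middle cells and 0.0605, 0, 0.0518 and 0.248 RPKM in the late cells. MRPS17, of the small mitochondrial ribosome subunit, had 633, 129.6, 27.3 and 306 RPKM and then 0.101, 0, 0.0863 and 0.0826 RPKM. Both were above 60 RPKM on average in the NANOG-high and the other NANOG-low cells of the letter.

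Proliferation genes split the late cells. Of 17 measured G2/M genes 7 were lower and 1 higher, none without overlap. Over all measured genes 35.6% were lower and 28.6% higher, so the count of lower G2/M genes is not read as a result about them. Late cell 12 lay below 1 RPKM for 14 of the 17 and the hatched cell for 13, while late cells 11 and 17 did so for 2 and 1 and the middle cells for 0 to 2. CCNB1, cyclin B1, had 187, 281, 146 and 522 RPKM in the middle cells and 8.44, 0.537, 461 and 0.11 RPKM in the late cells. Of 16 DNA replication genes 4 were lower and 2 higher, which is likewise to be read beside those shares. Late cell 12 had the most PCNA, the clamp of the replicating polymerase, at 928 RPKM.

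Most of the measured stress genes were higher in the late cells, beside the differences above. Of 12 measured stress and p53 target genes 9 were higher and 1 lower, against 28.6% and 35.6% of all measured genes. Of the 12, 5 entered only through the late cells, and of the 6 measured on both sides 4 were higher and 0 lower. HSPA1A, the inducible heat shock protein, had 0.316, 35.5, 0.167 and 9.82 RPKM in the middle cells and 55.6, 76.6, 271 and 149 RPKM in the late cells. SESN2, a sestrin induced by p53 and nutrient stress, had 8.61, 45.6, 1.74 and 0.0929 RPKM and then 135, 69.2, 70.6 and 106 RPKM. Both were without overlap, at log2 ratios of 3.48 and 2.68, while GADD45A, a p53 target, had 259, 218, 236 and 226 RPKM in the late cells against 187 to 235 RPKM in 3 middle cells and 0.051 RPKM in middle cell 10. Embryos were digested with protease and trypsin before each cell was lysed, and the part of handling was not tested.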

How the data were processed

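RNA of 95 single cells was sequenced as 100-base single reads. Per the submitters' processing notes, FastQC, TopHat2 2.1.0, HTSeq and DESeq2 were used, with no role given; build and annotation are not given in the sources used here. The deposited table holds 1 value per gene and cell, read as RPKM made by the authors: the table names no unit, and low values are whole multiples of a step set by gene and cell. Depth was recovered from those steps for 11529 of 16049 genes (tolerance 0.05 reads). All columns matched a title, with 0 left over. RefSeq (14689 symbols matched) gave names only.

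Group means were compared as log2 ratios (1 RPKM added). Measured means a mean of 5 RPKM on either side; called means 2-fold. Named were the 15 highest and 15 lowest ratios among genes without overlap at a mean of 20 RPKM, and up to 5 members per list and direction. Any other gene named was chosen after its values were seen. Members and lists were chosen with earlier results of these data known. No test was made, since the labels name no animal or embryo. Detection is limited by single-cell capture and PCR without molecular identifiers, so 0 is not absence. The ratio code was tested on simulated data (Python 3.11.15, pandas 2.3.3, NumPy 2.4.6, matplotlib 3.10.9). Lists with under 10 measured members (oocyte, genome activation, cumulus and other somatic cells) gave 1 higher and 2 lower of 4, 2 higher of 3, and 1 higher of 2; the primitive blood list had 0 measured. Some items withheld for evaluation are not reported here. Alternatives are in the closing section.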

Additional observations from a re-analysis of the deposited data

Results flagged for a closer look

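Within each group of 4 cells, 84 genes were searched for a cell far from the other 3 by Dixon's criterion. Values were taken as log2(RPKM + 1). The 84 do not cover every gene named here. FST, AFP, APOC3 and ATF3, all highest in the hatched cell, and GADD45A, lowest in middle cell 10, were not among them. Of 144 groups looked at, 14 held such a cell, where chance gives about 1 in 20. These counts hold for the 84 genes only.

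Of the 14, 4 were the hatched cell 14 among the late cells: OTX2 at 0.0218 RPKM (others 129 to 289), KIT at 0.0559 RPKM (57.6 to 122), TDGF1 at 65.8 RPKM (315 to 405), and IL6R at 35.2 RPKM where the others were at most 0.00956 RPKM. Late cell 11 stood apart for LDHB, lactate dehydrogenase B, at 147 RPKM against 1113 to 1268 RPKM.

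Middle cell 3 stood apart in 4 genes: high for OTX2 (7.03 RPKM, others at most 0.0297) and NODAL (23.3 RPKM, at most 0.217), and low for NID1 (25.7 RPKM, 65.5 to 77.0) and POU5F1 (631 RPKM, 976 to 1056). Middle cell 2 stood apart in 3: COL4A1 at 14.1 RPKM (79.0 to 97.2), CYP26A1 at 12.9 RPKM (at most 0.0279) and MT1F at 788 RPKM (218 to 239.8). Middle cell 4 had 223 RPKM of NDUFA1 (498 to 552), and middle cell 10 had 0.0303 RPKM of SERPINE2 (47.2 to 99.1). No cause was tested.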

How the results depend on the processing

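Counts moved by over 1.5 times under these settings. A pseudocount of 10 RPKM gave 1197 genes higher and 1531 lower. A minimum mean of 20 RPKM gave 1137 and 1344, and 4 cholesterol genes lower. Medians over cells gave 1292 higher, and median-of-ratios scaling 1626 lower and 5 oxidative phosphorylation genes lower. At 4-fold 1178 were higher and 1558 lower, and 3 oxidative phosphorylation genes lower. Requiring no overlap left 163 higher and 529 lower, with 4 patterning genes, 3 plasma protein genes and 2 transcription factors higher and 3 cholesterol and 3 oxidative phosphorylation genes lower. Also requiring 1 RPKM in every cell of the higher group, a setting chosen after seeing the data, left 140 and 399, with 2, 2, 2, 3 and 3 of those lists. Leaving out each cell in turn gave 1829 to 2098 higher and 2317 to 2676 lower genes, 9 to 14 transcription factors, 15 to 17 patterning, 11 to 12 matrix and 6 to 9 plasma protein genes higher, and 9 to 11 cholesterol and 11 to 14 oxidative phosphorylation genes lower. Of 1764 log2 ratios for 84 genes over 21 settings, 1728 stayed within 1 SD of the main ratio and 35 moved further. That SD was of log2(RPKM + 1) over the cells of the more variable group. It is wide for genes found in some cells only, so staying within it is a weak check. MTTP, which fell below 2-fold without the hatched cell, counted as staying. Of the 1764, 1 reversed, S100P at 0.16 with APOA1 of 200 RPKM or more. The 84 genes leave out APOC3, whose late mean of 106 RPKM rests on the hatched cell. Without that cell its ratio, 3.62 in the main setting, would turn negative, as the late blastocyst cells had 0. A reversal was counted only for genes past 2-fold in the main setting. Smaller ratios could change sign without being counted, and those of SERPINH1 and LAMC1 given above did change sign. BMP6 and CDH2 fell below 2-fold without middle cell 3 or 4 or late cell 11, and BMP6 also without the hatched cell. With APOA1 of 200 RPKM or more, P4HB, BMP6, SLC2A3, FTH1, LDHB, S100P, CDH2, KRT8 and GINS2 fell below 2-fold. Selection at APOA1 of 1000 RPKM or GATA4 of 100 RPKM took the same cells. No paired analysis was possible because cell numbers pair no samples. Depth and capture limit low genes most, and the cause of these shifts was not tested.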

Other observations

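The genes that set the late hypoblast cells apart from the other inner cells of letter G were traced back to the middle stage. Chosen after values were seen, 81 genes had a late mean of 20 RPKM or more, 5 RPKM or more in at least 3 of the 4 late cells, and a late mean 10-fold or more above the early, NANOG-high and remaining NANOG-low means. In the middle cells 45 of them averaged below 5 RPKM, 34 were at 5 RPKM or more but under 50% of the late level, and 2, SUSD3 and ARHGAP42, were at or over 50%. C3orf43 had the highest late mean, 5172 RPKM, and 744 RPKM in the middle cells. AKR1B10, an aldo-keto reductase, stood at 274 and 658 RPKM, and NID2 at 28.6% of its late mean. TTR, F2, IHH, PRDM1 and WNT11 averaged below 0.1 RPKM in the middle cells, and their late means were 179.7, 168, 211, 43.0 and 53.5 RPKM.

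A stricter search, with the late hypoblast cells among the groups compared, gave 7 genes. Their middle mean was 10-fold or more above that of every other group of the letter. They were MT1F, MT1B, BDH1, GAST, C14orf159, BCAP29 and LZTS1. The 81 genes of the late search were not held against the middle cells, so the counts of 7 and 81 cannot be compared. MT1F still averaged 25.4 RPKM in the NANOG-high cells. GAST, the gastrin gene, averaged 62.5 RPKM in the middle cells, 0 in the late cells and 4.26 RPKM in the early ones. BDH1, a ketone body dehydrogenase, averaged 69.7 and 5.33 RPKM.

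Outside letter G, 3 blastocyst cells had GATA4 of 10 RPKM or more with APOA1 of 500 RPKM or more, a search made after values were seen. They were inner cell 8 of letter A (early blastocyst), outer cell 3 of letter B (middle) and inner cell 14 of letter H (late). By the limits used for letter G, the cell of letter A, at 30.9 RPKM of GATA4, is below that for middle cells, the cell of letter B is an outer cell, and the cell of letter H, at 26.1 RPKM of NANOG, is above that for late cells. Of the 140 genes higher in late cells of letter G under the strictest count, 109, 106 and 90 lay at or below the highest middle cell of letter G in these 3 cells, and 18, 22 and 26 at or above the lowest late cell. Of the 399 lower genes, 91 were at or below the highest late cell in the late cell of letter H, against 200 and 219 in the early and middle cells. Its SPARC was 205.6 RPKM and its FN1 42.9 RPKM, where the early and middle cells had less than 1 RPKM of both, but HHEX and FOXA1 were 0. The letter may mark a batch, an embryo or a day, and its part was not tested.

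Middle cell 10 was below 1 RPKM for 178 genes at 20 RPKM or more in each of the other middle cells, against 26 to 49 such genes for the others. Among them was SERPINE2. It also had the lowest APOA1, 105 RPKM.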
